A study of Arachis hypogaea with 3 samples.

Results

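The gynophore of peanut (Arachis hypogaea) grows downward and pushes the ovary underground, where the pod forms, and its microtubule proteins are described here from the RNA sequencing of 3 stages. Their members are the reference sequences whose best database hit is described with the word tubulin, microtubule, kinesin, katanin or MAP65. There were 157 such sequences among 83579, or 0.188%, and 155 of them had at least 1 read in any library. S1 gynophores were aerial, green or purple, and 3 to 5 cm long, S2 gynophores had spent about 3 days in the soil, and S3 gynophores grew in the dark and bore pods of 2 to 3 mm. All were field-grown plants of the cultivar Luhua 14, and no treatment or genotype separated them. The cut of the tip-most 1 cm is given in the labels for protein extraction, the sources used here do not say how many plants went into a library, and each stage has 1 library. Differences below therefore lack replicates, SDs and p-values. S1 differs from S2 and S3 in stage and in soil contact at once, and these cannot be told apart.

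Microtubules are hollow polymers of alpha-tubulin and beta-tubulin, which join as a dimer, and they grow from ring complexes that hold gamma-tubulin. In plant cells they line the cortex, where they guide the cellulose synthase complexes of the elongating wall, and in dividing cells they form the preprophase band, the spindle and the phragmoplast. Kinesins are motors that use ATP to move along microtubules, MAP65 proteins cross-link neighbouring microtubules, katanin severs them, and a set of folding cofactors assembles the tubulin dimer.

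The members comprise 33 tubulin subunits (13 alpha-tubulins, 17 beta-tubulins, 2 gamma-tubulins and 1 sequence described only as a tubulin family protein), 74 kinesins, 7 kinesin light chains, 13 tubulin folding factors, 9 proteins of the gamma-tubulin complex, 4 katanins, 2 MAP65 proteins, 14 other microtubule proteins and 1 light chain 3 protein. Their lengths ran from 150 to 2415 bases, and the median length was 522. Of the tubulin subunits, 29 were public peanut sequences and 4 were assembled unigenes, whereas 64 of the 74 kinesins were unigenes. A sequence is often a fragment of a gene, and the 157 sequences have only 84 distinct best hits, so several members can come from 1 gene. Every best hit whose organism is given is a plant protein, most often of Ricinus communis, with 67 sequences. All 33 tubulin subunits carry the Gene Ontology (GO) term microtubule cytoskeleton and 61 of the 74 kinesins the term motor activity, both assigned by similarity like the names themselves. No genome position is given, because no peanut genome was used here.

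Of the 20734295 counted reads, S1 had 33.3%, S2 32.2% and S3 34.5%. Levels are RPKM, reads per kilobase of sequence and per 1000000 reads. Brackets hold a 95% exact Poisson interval after an RPKM and a 95% exact Clopper-Pearson interval after a ratio of RPKM, both of which cover counting error only and compare libraries, not stages. A sequence is counted as higher or lower where its RPKM + 1 differs at least 2 times between libraries, and medians are of the log2 ratio of RPKM + 1. Over all 81517 sequences with a read, this median was 0 for S2 over S1, 0.18 for S3 over S2 and 0.16 for S3 over S1. Under a rescaling that sets the median ratio between libraries to 1, these ratios would be multiplied by 1.03, 0.853 and 0.875. Sums and ratios are given on the deposited scale.

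The members as a whole took fewer reads in each later stage. They held 8476, 6517 and 4089 reads per 1000000 in S1, S2 and S3, an S3 over S1 ratio of 0.482 (0.476 to 0.489). The library with the highest level was S1 for 108 of the 155 members with a read, S2 for 20 and S3 for 27, whereas of all sequences with a read 30.2% peaked in S1, 25% in S2 and 44.8% in S3. Between S3 and S1, 61 members were lower in S3 and 6 higher, beside 13.9% lower and 21% higher among all sequences with a read, and the median over the members was -0.79. In this bulk tissue, fewer cells of a type and less RNA per cell cannot be told apart. In S2 relative to S1, 23 members were lower and 3 higher, beside 9.19% lower and 9.03% higher of all sequences. Among the 134 members with at least 30 reads, 22 were lower and 0 higher in S2, beside 8.27% lower and 7.63% higher of all sequences with as many reads. In S3 relative to S2, 28 members were lower and 10 higher, beside 11.4% lower and 18.6% higher of all sequences. At 30 or more reads, 24 were lower and 8 higher in S3 than in S2, beside 12.2% and 19.1% of all such sequences, and 59 were lower and 5 higher in S3 than in S1, beside 15.6% and 21.9%.

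**Figure D1:**
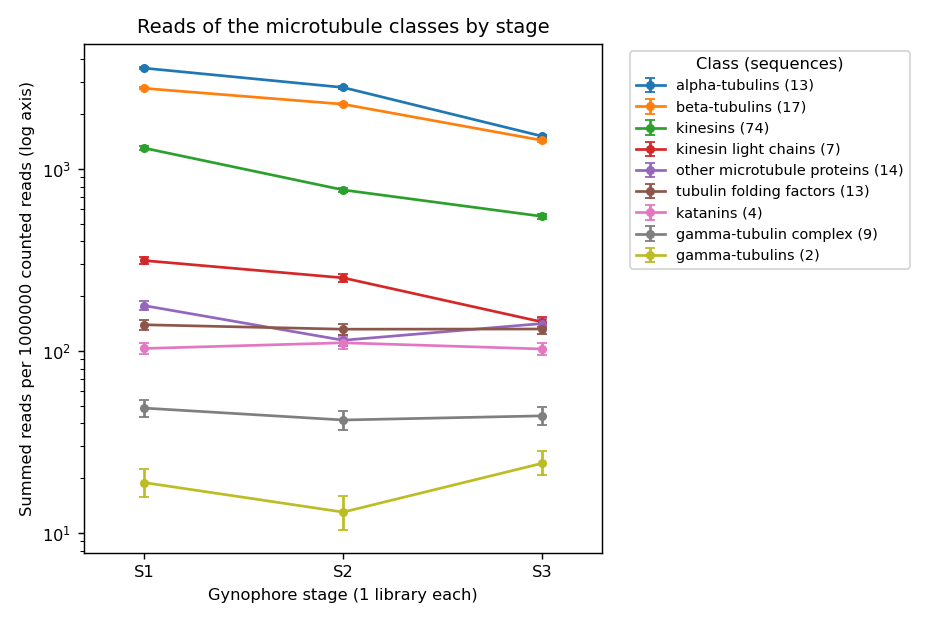
Summed reads of each microtubule class per 1000000 counted reads (log axis) in the S1, S2 and S3 libraries, with 95% Poisson intervals as bars and 1 library a stage. The lines of alpha-tubulins, beta-tubulins, kinesins and kinesin light chains slope down at both steps, while the folding factors stay between 132 and 139 and the katanins between 103 and 111.

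Tubulin subunits supplied most of these reads, 6383 of the 8476 per 1000000 in S1, 5092 of 6517 in S2 and 2974 of 4089 in S3. Their S3 over S1 ratio was 0.466 (0.458 to 0.474). By sequence, 11 of the 31 subunits with a read (35.5%) were lower in S3 than in S1, 2 (6.45%) were higher and 18 were within the limit. Of all sequences with a read, 13.9% were lower and 21% higher. The median over the subunits was -0.52, and -0.94 over the 22 with at least 30 reads. Both sequences counted higher, the alpha-tubulins EZ723187.1 and JK155495.1, were within the limit once the libraries were rescaled, and JK155495.1 had only 1, 0 and 6 reads in S1, S2 and S3. The 2 subunits counted higher in S2 than in S1 (6.45%, beside 9.03% of all sequences) also had few reads. They were the alpha-tubulin GW985179.1 with 9 in S2 and 1 in S1 and the beta-tubulin JK154315.1 with 4 in S2 and 0 in S1.

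Alpha-tubulin was dominated by a pair of public sequences. The alpha-tubulin EZ730116.1 (1533 bases), with the highest RPKM of all members in each library, stood at 1080.5 RPKM in S1 (1061 to 1100), 915 in S2 (897 to 934) and 417 (405 to 430) in S3. Tubulin A, EZ722876.1 (1630 bases, best hit in Glycine max), stood at 798, 498 and 235 RPKM in S1, S2 and S3. Both were lowest in S3, with S3 over S1 ratios of 0.386 (0.373 to 0.400) and 0.294 (0.282 to 0.307). Together they held 82.5%, 78.9% and 67.5% of all alpha-tubulin reads in S1, S2 and S3. Without them, the summed alpha-tubulin reads had an S3 over S1 ratio of 0.781 (0.746 to 0.816), against 0.422 (0.413 to 0.432) with them.

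The other 4 alpha-tubulins with at least 30 reads were less different, or higher in S3. EZ722588.1 (1790 bases) had 299 RPKM in S1, 290 in S2 and 200 in S3, so that its lower level appeared only in the S3 library. EZ732861.1 (988 bases) had 55.7, 47.5 and 69.8 RPKM in S1, S2 and S3, and was highest in S3 with an S3 over S2 ratio of 1.47 (1.27 to 1.70). It shares its best hit with EZ730116.1, and the pair went opposite ways between S3 and S1.

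Both sequences with alpha-tubulin 6 of Populus as best hit and at least 30 reads were also highest in S3. EZ734175.1 (1456 bases) had 21.9, 13.5 and 34.7 RPKM in S1, S2 and S3, an S3 over S2 ratio of 2.57 (2.10 to 3.17). EZ723187.1 (488 bases) had 10.1, 9.52 and 23.8 RPKM in S1, S2 and S3, an S3 over S1 ratio of 2.36 (1.57 to 3.63). As a class the 12 alpha-tubulins with a read had a median near 0 between S3 and S1, -0.01, although their summed reads were lower in S3. Of these 12, 2 (16.7%) were lower and 2 (16.7%) higher in S3 than in S1, and the other 8 were within the limit. These shares are near the 13.9% lower and 21% higher of all sequences with a read. The remaining alpha-tubulins had at most 17 reads over the 3 libraries, and 1 of them, GW991139.1, had none.

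Beta-tubulins, the partners in the dimer, mostly differed in one direction. Of 16 with a read, 13 peaked in S1 and 3 in S2, and none peaked in S3. In S3 relative to S1, 9 (56.2%) were lower and none higher, beside 13.9% and 21% of all sequences, with a median of -1.21. The 95% interval of the ratio lay below 1 for 14 and above 1 for none, beside 17.6% below and 24.8% above 1 of all sequences. In S2 relative to S1, 3 (18.8%) were lower and 1 (6.25%) higher, beside 9.19% and 9.03% of all sequences. In S3 relative to S2, 6 (37.5%) were lower and 0 higher, beside 11.4% and 18.6%. The intervals of 10 of the 16 lay below 1 both for S2 over S1 and for S3 over S2, a course found for 3.22% of all sequences with a read. These interval shares are not like for like, because an interval leaves out 1 more readily at more reads. The median RPKM in S1 was 130 for the beta-tubulins and 6.43 for all sequences with a read. Scale matters too: EZ724871.1 had an S2 over S1 ratio of 0.953 (0.911 to 0.997) as deposited and 1.00 when rescaled by the upper quartile. The summed reads were 2777 per 1000000 in S1, 2272 in S2 and 1436 in S3.

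The size of the difference varied widely among the beta-tubulins. EZ724871.1 (1712 bases), the most abundant by reads, had 337 RPKM in S1 (327 to 348), 321 in S2 (311 to 332) and 242 (233 to 251) in S3. EZ721064.1 (1801 bases) was nearly level, with 240, 216 and 227 RPKM in S1, S2 and S3 and an S3 over S1 ratio of 0.946 (0.899 to 0.996). EZ722020.1 (1624 bases), whose best hit is beta-tubulin 8 of barley, had 158, 197 and 113 RPKM in S1, S2 and S3. It was the only beta-tubulin whose interval for S2 over S1 lay above 1, at 1.25 (1.17 to 1.33). EZ726517.1 (2415 bases) had 179 RPKM in S1, 122 in S2 and 54.8 in S3, lower at each step, with an S3 over S1 ratio of 0.306 (0.284 to 0.330).

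A further 3 beta-tubulins were far lower in S3, where 1 of them was nearly absent. JK201692.1 (550 bases, best hit a beta-1 chain) was read 322 times in S1, 112 times in S2 and 4 times in S3, or 84.7, 30.5 and 1.02 RPKM, an S3 over S1 ratio of 0.0120 (0.00325 to 0.0310). Unigene19632 (1531 bases) had 154 RPKM in S1 (146 to 161), 71.2 in S2 (66.1 to 76.5) and 5.57 (4.26 to 7.16) in S3. Its S3 over S1 ratio was 0.0363 (0.0276 to 0.0468), with 61 reads in S3 and 1626 in S1. Unigene67631 (631 bases) had 107, 55.1 and 14.9 RPKM in S1, S2 and S3, a ratio of 0.139 (0.106 to 0.180). By contrast, EZ721064.1 and EZ724871.1 together held 36.3%, 41.3% and 57.3% of the beta-tubulin reads in S1, S2 and S3. The rest of the beta-tubulins had an S3 over S1 ratio of summed reads of 0.347 (0.335 to 0.359).

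**Figure D2:**
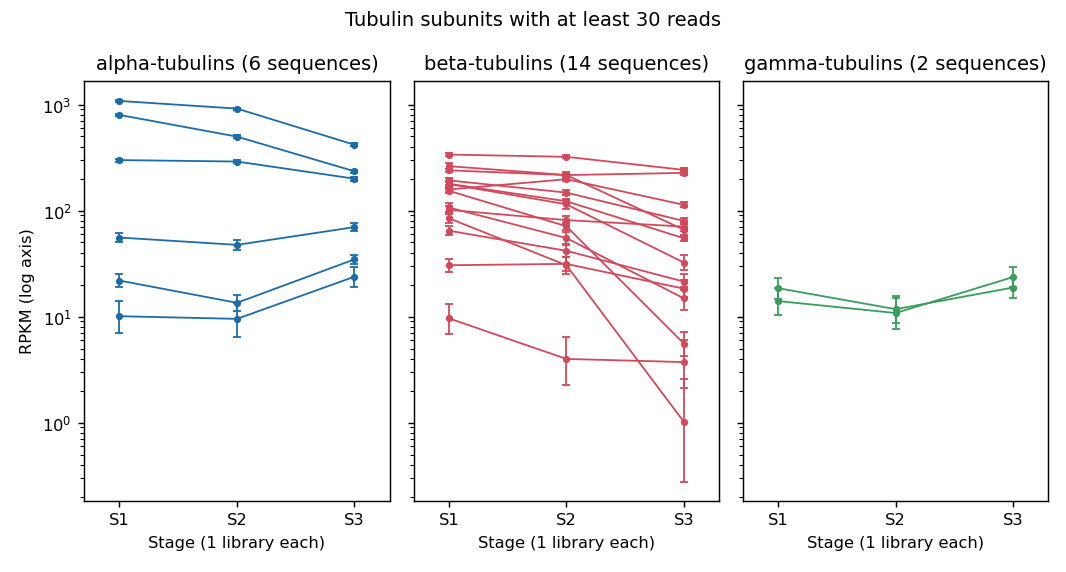
RPKM (log axis) of the tubulin subunits with at least 30 reads, 1 line per sequence, in the S1, S2 and S3 libraries with 95% Poisson intervals. The 14 beta-tubulins spread apart in S3, where the lowest is at 1.02 RPKM and the highest at 242. In S3, 3 of the 6 alpha-tubulins and the gamma-tubulin JK157704.1 are higher than in S1, while the gamma-tubulin GW983611.1 is nearly level, at 18.8 and 18.5 RPKM.

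Gamma-tubulin, which nucleates microtubules, was far less abundant and had its lowest level in S2. GW983611.1 had 18.5 RPKM in S1 (14.7 to 23.1), 11.7 in S2 (8.69 to 15.5) and 18.8 (15.0 to 23.3) in S3. JK157704.1 (527 bases) had 14.0 RPKM in S1 (10.4 to 18.4), 10.8 in S2 (7.65 to 14.8) and 23.6 (19.0 to 29.1) in S3. Both were higher in S3 than in S2, with a ratio of their summed reads of 1.86 (1.43 to 2.43). The 2 sequences share a best hit. The S3 level of GW983611.1 was above its S1 level as deposited and below it after rescaling, with ratios of 1.01 and 0.889.

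Because only reads with a single place were counted, reads that tubulin copies share are missing from all of these values. Among tubulin subunits with at least 100 reads in S1, 18 sequences, a median of 73.4% of the bases was covered by such reads, and 6 of the 18 were covered to less than 60%. Among the 24 kinesins with as many reads the median was 96.6%, with 2 below 60%, and over all 13128 such sequences it was 90.4%. Some of the tubulins discussed above were covered only in part, EZ732861.1 to 53.2%, Unigene67631 to 48.5% and JK201692.1 to 41.6% in S1, against 97.9% for EZ722876.1 and 97.4% for EZ724871.1. The part that reads with several places would add to these levels is not known from the deposited values. Coverage of the subunits was alike between libraries, with medians of 73.3% in S2 and 75.9% in S3.

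**Figure D3:**
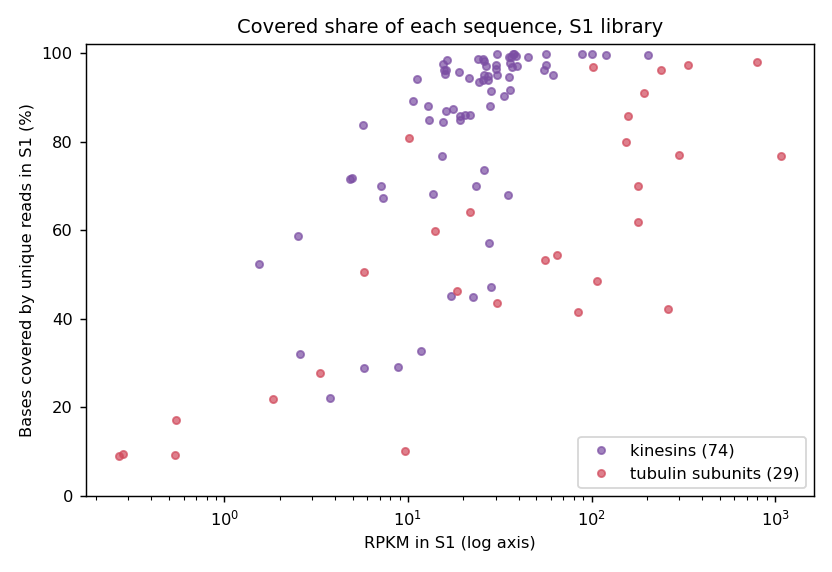
Percent of the bases of each sequence covered by uniquely placed reads in S1, against its RPKM in S1 (log axis), for kinesins and tubulin subunits with a read in that library. At 100 or more reads the kinesins have a median coverage of 96.6% and the tubulin subunits of 73.4%, so that abundant tubulins lie below kinesins of lower RPKM.

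Kinesins were the largest class, and 61 of the 74 peaked in S1, 4 in S2 and 9 in S3. Their summed reads were 1305 per 1000000 in S1, 768 in S2 and 549 in S3, with ratios of 0.588 (0.568 to 0.609) for S2 over S1, 0.715 (0.686 to 0.746) for S3 over S2 and 0.421 (0.405 to 0.437) for S3 over S1. In S2 relative to S1, 18 (24.3%) were lower and none higher, beside 9.19% and 9.03% of all sequences, with a median of -0.66. In S3 relative to S2, 15 (20.3%) were lower and 3 (4.05%) higher, beside 11.4% and 18.6%, with a median of -0.49. In S3 relative to S1, 43 (58.1%) were lower and 2 (2.70%) higher, beside 13.9% and 21%, and 29 were within the limit, with a median of -1.15. The 95% interval of the S3 over S1 ratio lay below 1 for 52 and above 1 for 5, beside 17.6% and 24.8% of all sequences. The tubulin subunits, by their summed reads, had S2 over S1 at 0.798 (0.787 to 0.809) and S3 over S2 at 0.584 (0.574 to 0.594), so that their larger step was the later one. Which step was larger for kinesins depended on the scale. Rescaled by the median of ratios, the kinesin medians were -0.63 for S2 over S1 and -0.70 for S3 over S2, and those of the tubulin subunits -0.31 and -0.64.

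The most abundant kinesin, Unigene71485 (1146 bases, best hit a kinesin-related protein of cotton), had 202 RPKM in S1 (192 to 212), 83.5 in S2 (77.2 to 90.3) and 23.3 (20.1 to 26.9) in S3. It was lower at each step, and its S3 over S1 ratio was 0.115 (0.0987 to 0.134). Its share of all kinesin reads was 17.8%, 12.5% and 4.86% in S1, S2 and S3, and without it the kinesin sum still had an S3 over S1 ratio of 0.487 (0.468 to 0.506). The 13 sequences described as kinesin-related protein together had 423, 216 and 81.3 reads per 1000000 in S1, S2 and S3. Of them, 11 (84.6%) were lower in S3 than in S1, beside 13.9% of all sequences.

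Sequences described as kinesin heavy chain, the motor subunit in animals, held the lowest ratio of the class. Unigene59165 (371 bases) had 120 RPKM in S1 (107 to 134), 38.0 in S2 (30.7 to 46.5) and 8.67 (5.50 to 13.0) in S3, an S3 over S1 ratio of 0.0722 (0.0451 to 0.110). Unigene16348 (778 bases), with the same best hit, had 100.2, 29.1 and 12.6 RPKM in S1, S2 and S3, an S3 over S1 ratio of 0.126 (0.0964 to 0.161). Both were lower at each step, Unigene59165 with ratios of 0.316 for S2 over S1 and 0.228 for S3 over S2, and Unigene16348 with 0.290 and 0.433. Unigene3766 (1668 bases) was milder, with 35.9, 23.8 and 17.9 RPKM in S1, S2 and S3. Of the 15 heavy chain sequences, 7 (46.7%) were lower in S3 than in S1 and none was higher, beside 13.9% and 21% of all sequences. Within the limit, 4 of the 15 had S3 over S1 ratios above 1, and for 1 of these the interval lay above 1.

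Other kinesin groups differed in the same direction, and their counts stand beside 13.9% lower and 21% higher in S3 than in S1 among all sequences. KIF4A is a chromosome-associated motor of dividing animal cells, and of the 11 sequences named KIF4A or KLP1, 6 were lower in S3 than in S1 and none higher, with a summed ratio of 0.352 (0.315 to 0.394). Within the limit, 1 of the 11 had a ratio above 1, at 1.79, and its interval lay above 1. The 5 carboxy-terminal or calmodulin-binding kinesins, whose motor lies at the carboxy-terminal end of the chain, all had ratios below 1 with intervals below 1, and 4 passed the limit. Of the 9 sequences described by the kinesin motor region, 7 were lower in S3. Among these, Unigene16667 (1673 bases) had 39.4, 22.5 and 14.8 RPKM in S1, S2 and S3, a ratio of S3 over S1 of 0.375 (0.314 to 0.447). Unigene71789 (1273 bases), described as kinesin-3, had 35.7, 33.0 and 15.7 RPKM in S1, S2 and S3, and differed mainly in the S3 library. The 5 sequences of bipolar kinesin KRP-130, a motor that in animals pushes spindle poles apart, had 2 best hits that differed. Their summed ratio, 0.714 (0.622 to 0.819), was the nearest to 1 of these groups. The 3 sequences of 1 best hit had ratios from 0.782 to 0.836. The 2 of the other, Unigene41516 and Unigene41609, had ratios from 0.145 to 0.185 and were lower past the limit.

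A few kinesins were higher in S3. Unigene12080 (1039 bases), described as a di-glucose binding protein with a kinesin motor domain, had 21.4 RPKM in S1 (18.2 to 25.1), 23.5 in S2 (20.04 to 27.4) and 84.4 (77.9 to 91.3) in S3. The S1 and S2 levels were alike, and the S3 over S2 ratio was 3.59 (3.02 to 4.29) and the S3 over S1 ratio 3.94 (3.29 to 4.73). In S3 it was the kinesin with the most reads, 627, against 191 for Unigene71485. A second sequence with that best hit had an S3 over S1 ratio of 0.621. Unigene29809 (179 bases) was read 6, 11 and 21 times in S1, S2 and S3, an S3 over S1 ratio of 3.38 (1.32 to 10.2), on few reads. Unigene42841 (230 bases, motor region) had 15.7, 16.3 and 31.0 RPKM in S1, S2 and S3, a ratio of 1.97 (1.20 to 3.32), within the limit. Of the 16 kinesins with other names, Unigene12080 among them, 6 (37.5%) were lower and 2 (12.5%) higher in S3 than in S1, with a median of -0.90. Of all sequences, 13.9% were lower and 21% higher. The summed reads of these 16 kinesins, 149, 128 and 153 per 1000000 in S1, S2 and S3, were nearly level only with Unigene12080. Without it they were 127, 103.4 and 65.7.

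**Figure D4:**
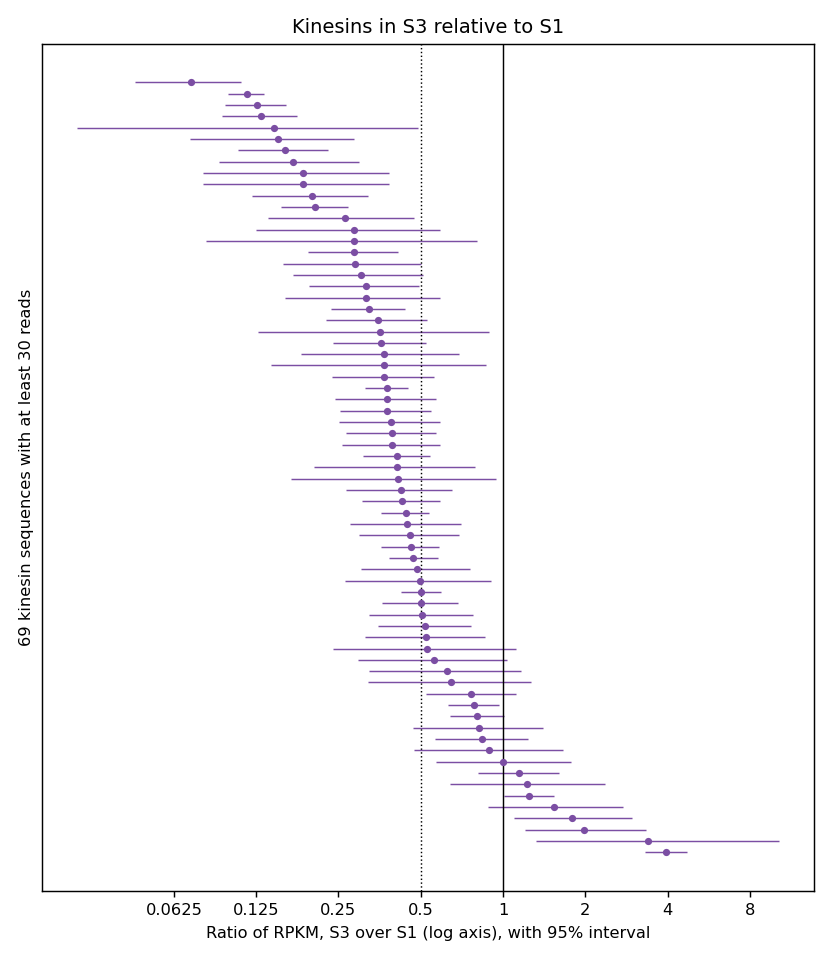
Ratio of RPKM in S3 to S1 (log axis) for the 69 kinesins with at least 30 reads, 1 point per sequence in order of the ratio, with 95% Clopper-Pearson intervals; the dotted line marks 0.5 and the full line 1. Of the 69 points 60 lie left of 1, with a median of 0.410, and the range runs from 0.0722 to 3.94.

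Kinesin light chains bind cargo to kinesin motors in animals, and in Arabidopsis related proteins hold cortical microtubules at the membrane. The 7 sequences had 314, 252 and 144 reads per 1000000 in S1, S2 and S3, an S3 over S1 ratio of 0.459 (0.426 to 0.495). Of the 7, 3 (42.9%) were lower in S3 than in S1 and none higher, beside 13.9% and 21% of all sequences. Chosen after their values were seen, Unigene71997 (1388 bases) had 133, 111 and 77.5 RPKM in S1, S2 and S3, and Unigene19273 (2079 bases) 36.7, 27.2 and 3.77 RPKM. Unigene19273 differed mainly between S3 and S2, at a ratio of 0.139 (0.103 to 0.184), whereas its S2 over S1 ratio was 0.741 (0.647 to 0.847).

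MAP65 proteins were barely represented among the members. Unigene43162 (232 bases), described as MAP65-3, a protein of the phragmoplast in Arabidopsis, was read 14 times in S1, 15 times in S2 and 9 times in S3, so that no difference was detectable at this depth. Unigene14783 (310 bases), described as MAP65-8, was read 15 times in S1 and 13 times in S2 and not at all in S3. A count of 0 allows up to 3 reads there, or 1.35 RPKM, against 6.28 RPKM (3.35 to 10.7) in the S2 library.

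Among the unigenes that tables of the study name as microtubule proteins, 5 have values here under another deposited description, so that they fall outside the 157 members. Unigene71866 (1313 bases), named MAP65-1a there and a hypothetical grapevine protein in the deposited table, had 94.4 RPKM in S1 (88.2 to 101), 122 in S2 (115 to 130) and 210 (200 to 219) in S3. It was higher at each step, with an S3 over S1 ratio of 2.22 (2.05 to 2.41). Unigene18692 (877 bases), named MAP65-1, had the same best hit but 28.5, 23.7 and 23.0 RPKM in S1, S2 and S3, within the limit. Unigene18936 (1174 bases), a kif4 protein, had 69.3, 47.2 and 19.3 RPKM in S1, S2 and S3, an S3 over S1 ratio of 0.279 (0.232 to 0.332). Unigene17959, an ATP binding protein by its deposited description, had 24.2, 19.9 and 25.2 RPKM in S1, S2 and S3. Unigene63270, a calmodulin binding protein by that description, had 15.3, 8.56 and 7.69 RPKM.

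Katanin levels barely differed between the libraries. The katanin p60 sequence EZ724436.1 (1548 bases), the ATPase that cuts microtubules, had 61.6 RPKM in S1 (57.0 to 66.5), 66.4 in S2 (61.5 to 71.6) and 61.6 (57.1 to 66.4) in S3, an S3 over S1 ratio of 1.00 (0.898 to 1.12). Its intervals overlap, although rescaling by the median of ratios puts the S3 over S1 ratio at 0.876. Of the 3 sequences of p80, the regulatory subunit, Unigene39343 (214 bases) was read 21, 19 and 22 times in S1, S2 and S3. A single p80 sequence passed the limit, Unigene32819, lower in S3 with 10 reads, against 22 in S1.

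The tubulin folding factors held 139, 132 and 132 reads per 1000000 in S1, S2 and S3. Between S3 and S1, 2 of the 13 (15.4%) were higher, 1 (7.69%) was lower and 10 were within the limit, no larger shares than the 21% and 13.9% of all sequences, and the median was -0.26. The higher ones were Unigene19110 and Unigene36553, both chaperone E, and the lower one GW964765.1, a cofactor C. Cofactor C, which acts late in dimer assembly, was lower in S3, with 63.4 reads per 1000000 over 6 sequences, against 91.2 in S1. Its most abundant sequences, EZ731503.1 (1072 bases) at 25.5, 28.9 and 19.0 RPKM and Unigene71503 (1152 bases) at 23.5, 24.2 and 19.4 RPKM in S1, S2 and S3, had S3 over S1 ratios of 0.747 (0.598 to 0.932) and 0.827 (0.665 to 1.03). Chaperone E, which acts on alpha-tubulin, was higher in S3. Its 3 sequences share a best hit and had 15.2 reads per 1000000 in S1, 17.4 in S2 and 36.9 in S3, with an S3 over S1 ratio of 2.43 (1.93 to 3.08) and an S3 over S2 ratio of 2.12 (1.70 to 2.67).

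Proteins of the gamma-tubulin complex, which hold gamma-tubulin in its rings, were at 48.6, 41.8 and 44.1 reads per 1000000 in S1, S2 and S3 over 9 sequences. None of the 9 passed the limit between S3 and S1, beside 13.9% lower and 21% higher of all sequences, and the 95% intervals of all 9 ratios included 1. Unigene68813 (718 bases) had 15.3, 10.6 and 15.4 RPKM, and EZ730205.1 (503 bases) 12.7, 18.5 and 16.7 RPKM in S1, S2 and S3.

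Of the other microtubule proteins, those described as XMAP215, a protein that speeds the growth of microtubule ends, were lowest in S2. Their 5 sequences, which share a best hit, had 126 reads per 1000000 in S1, 80.8 in S2 and 107 in S3, with ratios of 0.642 (0.575 to 0.715) for S2 over S1 and 1.33 (1.19 to 1.49) for S3 over S2. Unigene19127 (1626 bases) had 47.9 RPKM in S1 (43.9 to 52.1), 35.7 in S2 (32.2 to 39.4) and 44.6 (40.9 to 48.7) in S3. Unigene13914 (1030 bases) had 30.9, 15.6 and 24.9 RPKM, and Unigene12839 (891 bases), described as a microtubule organization protein, 29.4, 16.3 and 19.8 RPKM in S1, S2 and S3. All 3 had their lowest RPKM in S2, but the S3 over S2 ratio of Unigene12839, 1.21 (0.923 to 1.60), had an interval that included 1. Rescaled by the median of ratios, the S3 over S2 ratios of Unigene19127, Unigene13914 and Unigene12839 were 1.07, 1.36 and 1.03. The light chain 3 sequence, which by its full name is microtubule-associated but belongs to a family known for autophagy, had 6 reads in all.

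**Figure D5:**
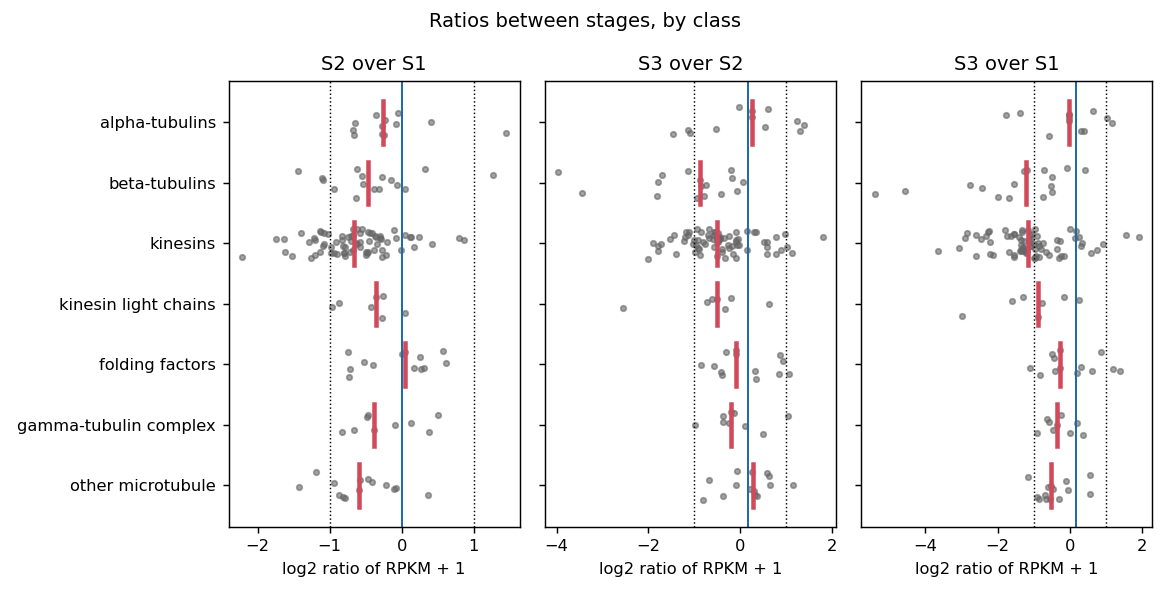
Log2 ratio of RPKM + 1 for each sequence with a read, by class, for S2 over S1, S3 over S2 and S3 over S1; red bars are class medians, blue lines the median over all sequences and dotted lines the limit of 2 times. For S3 over S1 the medians of kinesins (-1.15) and beta-tubulins (-1.21) lie beyond the lower limit and that of alpha-tubulins at -0.01.

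Members that share a best hit can be set beside each other. There were 32 best hits with at least 2 members that had 30 or more reads, 95 members in all. For 25 of the 32, all their members lay on the same side of 1 for S3 over S1. Because 121 of the 155 members with a read had a ratio below 1, a shared side is common among members in any case. No such share was computed over the best hits of all sequences. The 7 sequences of a kinesin-related protein of Trifolium repens had ratios from 0.159 to 0.414, and the 5 of XMAP215 from 0.537 to 0.933. As deposited, the 7 best hits with mixed directions included the alpha-tubulin pair and the di-glucose binding kinesin pair described above. Of the 8 sequences matching the motor region of Medicago truncatula, 7 had S3 over S1 ratios below 1 and 1 a ratio above 1, within the limit.

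Other genes of cell division and wall formation differed alongside in part. For comparison, 13.9% of all sequences with a read were lower and 21% higher in S3 than in S1. Of all sequences with a read, 30.2% were highest in S1 and 25% in S2. Cyclins A and B, which drive entry into mitosis, had 131 reads per 1000000 in S3, against 227 in S1. Of their 19 sequences with a read, 8 (42.1%) were lower in S3 and none higher. The 16 cyclin D sequences summed to 225 per 1000000 in S3 and in S1, although 5 (31.2%) of them were lower and 2 (12.5%) higher in S3. Cellulose synthase sequences had 618 reads per 1000000 in S3 and 1740 in S1, with 42 of 65 (64.6%) lower and 3 (4.62%) higher. Histones H2A, H2B, H3 and H4 were not highest in S1: they had 2446, 2804 and 1600 reads per 1000000 in S1, S2 and S3, and 24 of 35 sequences with a read were highest in S2. The actin cytoskeleton, with 3412, 2913 and 2861 reads per 1000000 in S1, S2 and S3, had 35 of 117 sequences (29.9%) lower and 11 (9.40%) higher in S3 than in S1. Markers of green tissue, chlorophyll a/b-binding proteins and the small chain of Rubisco, had 3127 reads per 1000000 in S1, 117 in S2 and 273 in S3, with 23 of 24 sequences highest in S1. Seed storage markers were low in all libraries, at 79.9, 86.0 and 97.2 reads per 1000000 in S1, S2 and S3. Of their 28 sequences with a read, 2 (7.14%) were lower and 2 (7.14%) higher in S3 than in S1, both below the shares of all sequences. The part of green tissue, dividing cells or wall formation in the microtubule differences was not tested.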

How the data were processed

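The authors sequenced Poly(A) RNA from 3 stages of the gynophore, 1 library each. They deposited read counts, the uniquely aligned reads of each reference sequence, together with the percent of its bases that these reads cover. The authors also deposited RPKM values, which equalled counts over length and library total to a relative deviation of 8.42e-09. No aligner is named, being not given in the sources used here, and the annotation of each sequence is its best hit in a protein database, and classes were formed by words in it. The members and lists were chosen with earlier results of these data known, and so was the list of further sequences with a microtubule GO term, a later addition. None of the identifiers matched the supplied RefSeq table of peanut genes (0 matches), so no position and no sequence is given.

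Ratios were computed on RPKM, medians and limits on log2(RPKM + 1). Sequences without a read are left out of counts, and a library at 0 is given the floor of 3 reads. Of the 157 members, 2 had no read and 134 had at least 30 reads over the libraries. No test across samples was made. Intervals were computed with scipy 1.17.1, and Python 3.11.15, numpy 2.4.6, pandas 2.3.3 and matplotlib 3.10.9 were used. The calculations were tested on simulated data.

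Sequences were named by rule: the 4 alpha-tubulins, 4 beta-tubulins, 2 gamma-tubulins, 6 kinesins, 5 MAP65 proteins (only 2 were found), 2 katanins, 2 folding cofactors, 2 gamma-tubulin complex proteins and 3 other microtubule proteins with the most reads, and the 3 kinesins and 3 tubulin subunits with the largest and the smallest ratio of RPKM + 1 of S3 to S1 among those with at least 30 reads. Members that stand in the protein tables of the study were to be named too, but the members were not searched for in those tables. Whether any member stands there is therefore not known here. The 5 unigenes that tables of the study name as microtubule proteins under another deposited description, and the alpha-tubulins, light chains, p80 sequence and folding factors named beyond the rule, were chosen outside it. Other unigenes so named in those tables, such as Unigene71117, are not analysed here. Sums without the leading sequences were added after seeing the data. Alternatives were rescaling by the median of ratios (over sequences that reach an RPKM of 1 in each library), rescaling by the upper quartile, adding 0.1 in place of 1 to the RPKM, a minimum of 30 reads, unigenes only, and a limit of 2 times joined to a 95% interval without 1.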

Additional observations from a re-analysis of the deposited data

How the results depend on the processing

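Alternatives were run for all members, tubulin subunits, kinesins and MAP65 proteins as classes. The medians of tubulin subunits and kinesins kept their sign, while that of the 2 MAP65 proteins for S2 over S1, close to 0, became 0.03, 0.06 and 0.14 under the median of ratios, the upper quartile and at 30 or more reads. At 30 or more reads, the tubulin median for S3 over S2 became -0.77 in place of -0.41. For S3 over S1 it became -0.94 in place of -0.52. For S2 over S1, the 3 members counted higher became 0 at 30 or more reads, 0 with unigenes only and 1 with the interval as a further limit, and the 2 tubulin subunits counted higher became 0, 0 and 1. The 3 tubulin subunits counted lower became 5 with a pseudocount of 0.1 and 1 with unigenes only. For S3 over S2, the 10 members counted higher became 4 under either rescaling, 16 with a pseudocount of 0.1 and 4 with unigenes only, and the 28 counted lower became 43 under either rescaling. The 3 kinesins counted higher became 1 under either rescaling, 5 with a pseudocount of 0.1 and 1 with unigenes only, and the 15 counted lower became 24 under either rescaling, with medians of -0.70 and -0.71 in place of -0.49. For S3 over S1, the 2 tubulin subunits counted higher became 0 under either rescaling, 4 with a pseudocount of 0.1, 1 at 30 or more reads, 0 with unigenes only and 1 with the interval, and the kinesin median became -1.32 under the median of ratios. The MAP65 median, over 2 sequences, became -3.41 with a pseudocount of 0.1 in place of -1.80, for S3 over S2 and for S3 over S1 alike. With unigenes only, which leaves 4 tubulin subunits, the tubulin counts became 0 higher and 2 lower for S3 over S2 and 2 lower for S3 over S1, and the tubulin medians became -0.85, -1.005 and -1.80 for S2 over S1, S3 over S2 and S3 over S1. Of 105 ratios of named members, 6 changed direction under the median of ratios and 8 under the upper quartile, all of them near 1, and 4 changed their side of the limit of 2 times under each. With 1 library a stage, library and stage cannot be told apart. No paired analysis was possible because the stages have a single library. Counts under 30 reads, 23 of the 157 members, allow no firm ratio.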

Other observations

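A further 282 sequences carried a GO term of microtubules without a microtubule word in their description, and 274 of them had a read. They had 7088, 5853 and 4951 reads per 1000000 in S1, S2 and S3, and 176 (64.2%) were highest in S1, beside 30.2% of all sequences with a read. In S3 relative to S1, 93 (33.9%) were lower and 20 (7.30%) higher, beside 13.9% and 21% of all sequences. Their median was -0.62, against -0.79 for the members and 0.16 for all sequences. This list was chosen after seeing the data.

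The checkpoint protein Bub3, which in yeast and animals acts at the kinetochore, had 2 sequences, both highest in S2. Their summed reads were 34.0 per 1000000 in S1, 38.1 in S2 and 27.7 in S3. The S2 over S1 ratio was 1.12 (0.934 to 1.34), with an interval that included 1. The S3 over S2 ratio was 0.728 (0.601 to 0.880).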
